A study of Mus musculus with 11 samples.

Results

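Absorptive colonocytes are the columnar cells that line the surface of the large intestine and take up water, salt and short-chain fatty acids. 10 genes of these cells and of their brush border are described here, out of 23224 gene names in the deposited count table. They were chosen by name (Muc13, 2210415F13Rik, now called Lypd8, Slc26a3, Car1, Car4, Lrrc19, Cyp2c55, Ms4a8a, Baiap2l2 and Vil1) when their levels in these same libraries were already known. Their levels and fold changes are therefore given as a description, with no p-value, and tests are given only for genes outside the 10. The lists of those other genes were also made with earlier results of these data known, and the p-values do not account for that choice. 8 of the 10 had enough counts to enter the fit over 13720 genes, and Slc26a3 and Car4 did not.

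The brush border is a dense field of microvilli on the luminal face of the cell. Each microvillus holds a bundle of actin filaments crosslinked by villin (Vil1) and plastin, tied to the membrane by myosin 1a and linked to its neighbours at the tips by protocadherins. Membrane mucins such as Muc13 and GPI-anchored proteins such as Lypd8 cover this surface, and the carbonic anhydrases supply bicarbonate and protons for exchange of chloride and sodium. In the colon the homeobox factors Cdx1 and Cdx2 and the nuclear receptor Hnf4a are known to maintain this programme.

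The 11 libraries were RNA-seq libraries of mouse colon cancer organoids labelled AKP, a genotype shared by all 5 groups whose alleles the labels do not spell out. 3 libraries were made from cultures re-derived from tumours of C57Bl6 hosts with an intact immune system (C57Bl6 tumour organoids), and 3 from cultures re-derived from tumours of RAG2KO hosts, which lack mature T and B cells (RAG2KO tumour organoids). 1 library came from a constitutive and 1 from a doxycycline-inducible SOX17OE line, made by lentiviral transduction of naive organoids, and 3 came from naive AKP organoids, the parental culture of all the others. Tumours arose after naive organoids were placed in the colon under colonoscopic guidance, and tumour cultures were passaged until, per the design text, cancer cells alone remained. The labels say neither whether doxycycline was given to the inducible line nor whether replicates were separate cultures or mice, so p-values measure only the spread between these samples.

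Levels are CPM (counts scaled to a common sequencing depth) on library sizes scaled by TMM, and are compared between libraries, never between genes. Library totals ran between 14109182 and 22154456 expected counts. Epithelial markers (7 of 7 listed genes detected) summed to 8653 to 10885 CPM in C57Bl6 tumour organoids, 9315 to 10112 in RAG2KO tumour organoids, 6262 in the constitutive line, 7937 in the inducible line and 9245 to 11029.9 in naive organoids. Sox17 averaged 35.0 ± 34.2 CPM in C57Bl6 tumour organoids and 20.6 ± 4.71 in RAG2KO tumour organoids, and stood at 72.7 in the constitutive and 4.78 in the inducible line, against 0.102 ± 0.0974 CPM in naive organoids (SD, n = 3 each). The labels were also checked against genes that define mature colonocytes in tissue: the water channel gene Aqp8 and the guanylin genes Guca2a and Guca2b were at or below 0.191 CPM in every library, and the fatty acid binding protein gene Fabp1 had 0 counts in all 11. So these organoids, naive ones included, had little or none of these transcripts of mature colonocytes. Other differentiation genes were detected: of 23 in the table, Guca2a, Guca2b and Fabp1 among them, 18 had enough counts to test. In naive organoids Lgals4 averaged 1328 CPM, Ceacam1 628 CPM and Ceacam20 1.30 CPM.

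At the cell surface, Muc13 encodes a transmembrane mucin of the enterocyte glycocalyx. It stood at 7.18, 8.19 and 16.3 CPM in C57Bl6 tumour organoids, 113, 111 and 227 CPM in RAG2KO tumour organoids, 1.04 CPM in the constitutive and 348 CPM in the inducible line, and 278, 269 and 340.3 CPM in naive organoids. No 2 of the 3 replicated groups overlapped: naive organoids were highest, RAG2KO tumour organoids were between, and C57Bl6 tumour organoids were lowest, while the inducible line lay just above the naive range and the constitutive line lay below every other library. The mean in C57Bl6 tumour organoids was 28-fold lower than in naive organoids (log2 fold change -4.81, SE 0.40) and 14.3-fold lower than in RAG2KO tumour organoids (-3.83, SE 0.39). The log2 fold change of RAG2KO tumour over naive organoids was -0.98 (SE 0.34). The constitutive line was at -8.15 (SE 0.84) against naive organoids and the inducible line at 0.23 (SE 0.47), so the SOX17OE lines stood at opposite ends for this gene. In bulk RNA, fewer cells that carry a transcript and less of it per cell cannot be told apart, here or for any other gene below.

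Of the 10 genes, 8 had a RefSeq promoter entry (10 windows) and Car1 and Baiap2l2 did not. Muc13 alone of the 8 held an exact HNF4 element, CAAAGTCCA or CAAAGTTCA on either strand, which 0.861% of all 32851 promoter windows held. The window ran 250 bases before to 50 after the start site, and the match, read here on the opposite strand and given in capitals, began 186 bases before the start. The second Muc13 window held none. The 250 bases before the start are printed from RefSeq's GRCm38.p6 build, plus strand, chr16:33794239-33794488, while the count table was made on mm9.
Muc13: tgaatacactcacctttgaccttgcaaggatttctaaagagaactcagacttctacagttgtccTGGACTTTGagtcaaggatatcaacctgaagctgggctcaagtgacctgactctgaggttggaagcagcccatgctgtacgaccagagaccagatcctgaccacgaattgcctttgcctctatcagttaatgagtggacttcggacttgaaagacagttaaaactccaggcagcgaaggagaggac

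Lypd8, listed as 2210415F13Rik, is a GPI-anchored protein known in mice for keeping flagellated bacteria away from the colonic epithelium. Its level was 3.88, 0.954 and 0.758 CPM in C57Bl6 tumour organoids, 29.0, 27.3 and 25.1 CPM in RAG2KO tumour organoids, 0.403 CPM in the constitutive and 6.99 CPM in the inducible line, and 14.4, 18.5 and 18.5 CPM in naive organoids. The order differed from that of Muc13, since every RAG2KO tumour library lay above every naive library, and both SOX17OE lines lay below the naive range. C57Bl6 tumour organoids averaged 9.20-fold lower than naive organoids (log2 fold change -3.20, SE 0.50) and 14.5-fold lower than RAG2KO tumour organoids (-3.86, SE 0.51). C57Bl6 replicate 1 stood above the other 2 of its group; without it these values were -4.32 and -4.98, and with limma voom, which weights libraries, they were -3.98 and -4.57. The log2 fold change over naive organoids was 0.66 (SE 0.44) in RAG2KO tumour organoids, -5.39 (SE 0.98) in the constitutive line and -1.29 (SE 0.68) in the inducible line.

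**Figure D1:**
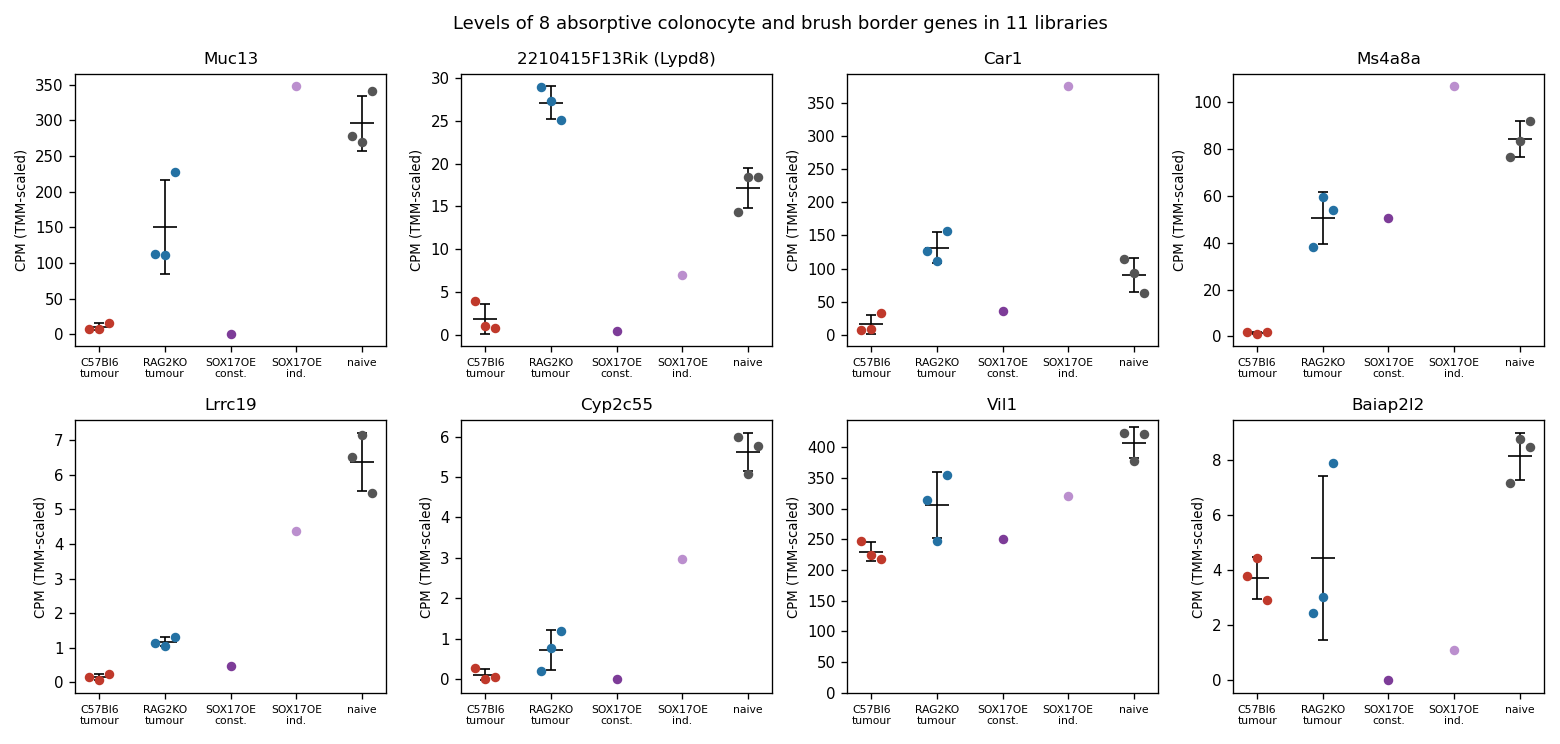
Level (CPM on TMM-scaled library sizes, linear axes) of the 8 genes with enough counts, 1 point per library, with a dash for the mean and bars for the SD of the groups of 3. RAG2KO tumour organoids lie above all naive libraries for 2210415F13Rik, and the inducible line tops every other library for Muc13, Car1 and Ms4a8a. In each panel C57Bl6 tumour organoids lie below all naive libraries, a description of genes chosen with these levels known. The share of all tested genes so separated was not computed.

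Of the genes for ion exchange, Slc26a3, the chloride-bicarbonate exchanger of the colonocyte apical membrane, and Car4, the GPI-anchored carbonic anhydrase, were near or at 0. Slc26a3 had 0 counts in all C57Bl6 and RAG2KO tumour libraries and in the constitutive line, 0.0583 CPM in the inducible line, and 0.143, 0.0438 and 0 CPM in naive organoids. Car4 had 0 counts in all 11 libraries, which allows up to 0.131 to 0.214 CPM per library (3 counts, counting error only). Neither could be compared between groups at this depth. Car1, the cytosolic carbonic anhydrase abundant in colonocytes, was well expressed in contrast. It stood at 7.86, 8.58 and 33.2 CPM in C57Bl6 tumour organoids, 126, 111 and 157 CPM in RAG2KO tumour organoids, 35.9 CPM in the constitutive and 375 CPM in the inducible line, and 114, 94.0 and 62.9 CPM in naive organoids. RAG2KO tumour and naive organoids overlapped, C57Bl6 tumour organoids lay below both, and the inducible line was the highest library. The mean in C57Bl6 tumour organoids was 5.46-fold lower than in naive organoids (log2 fold change -2.44, SE 0.52) and 7.95-fold lower than in RAG2KO tumour organoids (-2.99, SE 0.53). Without C57Bl6 replicate 3, the highest of its group, these values were -3.46 and -4.0. The log2 fold change over naive organoids was 0.54 (SE 0.49) in RAG2KO tumour organoids, -1.33 (SE 0.75) in the constitutive and 2.05 (SE 0.63) in the inducible line.

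Among the structural genes, Vil1 encodes villin, the actin-bundling protein used as a marker of the brush border. It stood at 248, 224 and 218 CPM in C57Bl6 tumour organoids, 314, 248 and 355 CPM in RAG2KO tumour organoids, 251 CPM in the constitutive and 320.1 CPM in the inducible line, and 423, 378 and 421 CPM in naive organoids. Its range across the 11 libraries was far narrower than that of the surface genes, and all tumour and SOX17OE libraries lay below the naive range. C57Bl6 tumour organoids averaged 1.77-fold lower than naive organoids (log2 fold change -0.83, SE 0.14) and 1.33-fold lower than RAG2KO tumour organoids (-0.41, SE 0.14). The log2 fold change over naive organoids was -0.41 (SE 0.14) in RAG2KO tumour organoids, -0.70 (SE 0.21) in the constitutive and -0.35 (SE 0.20) in the inducible line.

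Baiap2l2, also called Pinkbar, is a membrane-shaping protein of the BAR domain family found in intestinal epithelium. It had 3.77, 4.43 and 2.93 CPM in C57Bl6 tumour organoids, 2.43, 3.04 and 7.86 CPM in RAG2KO tumour organoids, 0 and 1.11 CPM in the constitutive and inducible lines, and 7.15, 8.76 and 8.44 CPM in naive organoids. The C57Bl6 and RAG2KO tumour groups overlapped, and RAG2KO replicate 3 alone reached the naive range. The log2 fold change over naive organoids was -1.13 (SE 0.42) in C57Bl6 tumour organoids and -0.87 (SE 0.41) in RAG2KO tumour organoids, and that of C57Bl6 over RAG2KO tumour organoids was -0.26 (SE 0.42). Without RAG2KO replicate 3 the last 2 values were -1.57 and 0.44, so the order of the tumour groups for this gene rested on that library. With 0 counts, the constitutive line was at least 46.9-fold lower than the naive mean (against 3 counts in that library), and the inducible line was 7.33-fold lower (log2 fold change -2.87, SE 0.72). This was the 1 gene of the 8 for which the inducible line lay below all 9 libraries of the replicated groups.

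Of the remaining genes, Lrrc19 encodes a transmembrane receptor with leucine-rich repeats expressed in intestine and kidney. It had 0.157, 0.0561 and 0.253 CPM in C57Bl6 tumour organoids, 1.15, 1.05 and 1.31 CPM in RAG2KO tumour organoids, 0.461 CPM in the constitutive and 4.37 CPM in the inducible line, and 6.5, 7.14 and 5.48 CPM in naive organoids. The replicated groups formed 3 separate steps, with naive organoids highest, and both SOX17OE lines lay below the naive range. C57Bl6 tumour organoids averaged 41.1-fold lower than naive organoids (log2 fold change -5.28, SE 0.46) and 7.53-fold lower than RAG2KO tumour organoids (-2.84, SE 0.46). These C57Bl6 levels rest on 3, 1 and 5 counts. The log2 fold change over naive organoids was -2.44 (SE 0.38) in RAG2KO tumour organoids, -3.77 (SE 0.66) in the constitutive and -0.54 (SE 0.51) in the inducible line.

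Cyp2c55 is a cytochrome P450 of the mouse colon that oxidises fatty acids. Its level was 0.262, 0 and 0.0505 CPM in C57Bl6 tumour organoids, 0.202, 0.759 and 1.18 CPM in RAG2KO tumour organoids, 0 in the constitutive and 2.97 CPM in the inducible line, and 6.0, 5.08 and 5.77 CPM in naive organoids. The tumour groups overlapped in 1 library each, and both lay below naive organoids. The C57Bl6 mean, which rests on 5, 0 and 1 counts, was 53.9-fold lower than in naive organoids (log2 fold change -5.65, SE 0.84). Without C57Bl6 replicate 1 the value was -7.39. RAG2KO tumour organoids were at -2.95 (SE 0.69) against naive organoids, and C57Bl6 against RAG2KO tumour organoids were at -2.69 (SE 0.85), or -4.44 without C57Bl6 replicate 1. The constitutive line, with 0 counts, was at least 32.5-fold lower than the naive mean, and the inducible line was at -0.92 (SE 0.92). Cyp2c genes are alike in sequence and RSEM divides shared reads between them, so these values are uncertain; of 14 other Cyp2c genes listed 1, Cyp2c65, had enough counts to test.

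Ms4a8a encodes a multi-pass membrane protein of the MS4A family. It stood at 1.78, 1.18 and 1.97 CPM in C57Bl6 tumour organoids, 38.2, 59.5 and 53.9 CPM in RAG2KO tumour organoids, 50.6 CPM in the constitutive and 107 CPM in the inducible line, and 76.8, 83.6 and 92.1 CPM in naive organoids. Replicated groups did not overlap, and the C57Bl6 tumour libraries were all below 2 CPM while the other 8 libraries were at 38.2 CPM or more. The C57Bl6 mean was 51.2-fold lower than the naive mean (log2 fold change -5.67, SE 0.24) and 30.8-fold lower than the RAG2KO mean (-4.93, SE 0.24). RAG2KO tumour organoids were at -0.74 (SE 0.19) against naive organoids, the constitutive line at -0.73 (SE 0.28) and the inducible line at 0.35 (SE 0.26). Unlike Muc13, this gene was thus near its RAG2KO level in the constitutive line. Of 14 other Ms4a genes found in the table, 1 had enough counts to test, and it was not called in any comparison.

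The short CDX element (TTTAT or TTTAC, either strand) lay in 6 of the 10 windows, beside 54.7% of all promoter windows. These 6 windows belonged to 6 of the 8 genes with a promoter entry. The windows of Lrrc19 and Cyp2c55, whose levels followed each other most closely, held 4 matches each, given in capitals, and are printed to show how they lie before the start site. An AGATAA element, which 11.2% of all windows held, overlapped the third match of Cyp2c55, and SOX elements (ACAATG or ACAATA), found in 19.7% of windows, lay in those of Slc26a3 and Cyp2c55. The stretches are the 250 bases before the start in GRCm38.p6, minus strand at chr4:94650145-94650394 for Lrrc19 and plus strand at chr19:39006769-39007018 for Cyp2c55, and a match describes the letters only.
Lrrc19: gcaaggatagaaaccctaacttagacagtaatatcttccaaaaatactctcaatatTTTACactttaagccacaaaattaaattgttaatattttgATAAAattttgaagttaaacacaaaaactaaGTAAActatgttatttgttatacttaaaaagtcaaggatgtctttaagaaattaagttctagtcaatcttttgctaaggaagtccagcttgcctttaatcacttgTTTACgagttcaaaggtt
Cyp2c55: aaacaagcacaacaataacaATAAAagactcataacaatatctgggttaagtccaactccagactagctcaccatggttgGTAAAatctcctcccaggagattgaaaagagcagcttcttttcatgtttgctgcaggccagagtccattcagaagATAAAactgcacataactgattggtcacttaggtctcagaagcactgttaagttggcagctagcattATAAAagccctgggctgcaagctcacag

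The 8 genes thus did not form 1 block. Over the 11 libraries, Pearson's r between pairs of the 8 (28 pairs, log2(CPM + 0.5)) had a median of 0.68. It was highest for Lrrc19 with Cyp2c55 (0.96) and Lrrc19 with Vil1 (0.91), and lowest for Baiap2l2 with Car1 (0.02) and with Ms4a8a (-0.00). Libraries of a group share their origin, so these are descriptions of 5 groups more than of 11 independent points. Naive organoids had the highest mean for 4 of the 8 genes, the inducible line for 3 and RAG2KO tumour organoids for 1. C57Bl6 tumour organoids and the constitutive line had the lowest level for 4 genes each. Within RAG2KO tumour organoids, replicate 3 was the highest library for 6 of the 8. How often that library was highest over all tested genes was not computed, so nothing particular to the 8 is read from this.

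Read against the background of all genes, C57Bl6 tumour over naive organoids had 9.50% of genes called higher and 5.85% called lower (edgeR, adjusted p under 0.05). Of the 10 genes 0 were called higher, 7 were called lower, Baiap2l2 was not called and 2 were not tested, with a median log2 fold change of -4.0 among the 8, beside 0.023 over all genes. In RAG2KO tumour over naive organoids, 16.0% of genes were called higher and 13.3% lower, and of the 10 genes 0 and 3 were called, with a median of -0.80 beside 0.022. In C57Bl6 over RAG2KO tumour organoids, 12.2% were called higher and 11.8% lower, and of the 10 genes 0 and 6 were called, with a median of -2.91 beside 0.001. For the mean of the SOX17OE lines over naive organoids, 6.77% were called higher and 5.92% lower, and of the 10 genes 0 and 5 were called. With genes at 0 set at their bound, the median was -4.40 in the constitutive line and -0.45 in the inducible line, and without the constitutive library none of the 10 was called. These counts come from the contrasts that were known when the genes were chosen, and nothing is read from them.

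**Figure D2:**
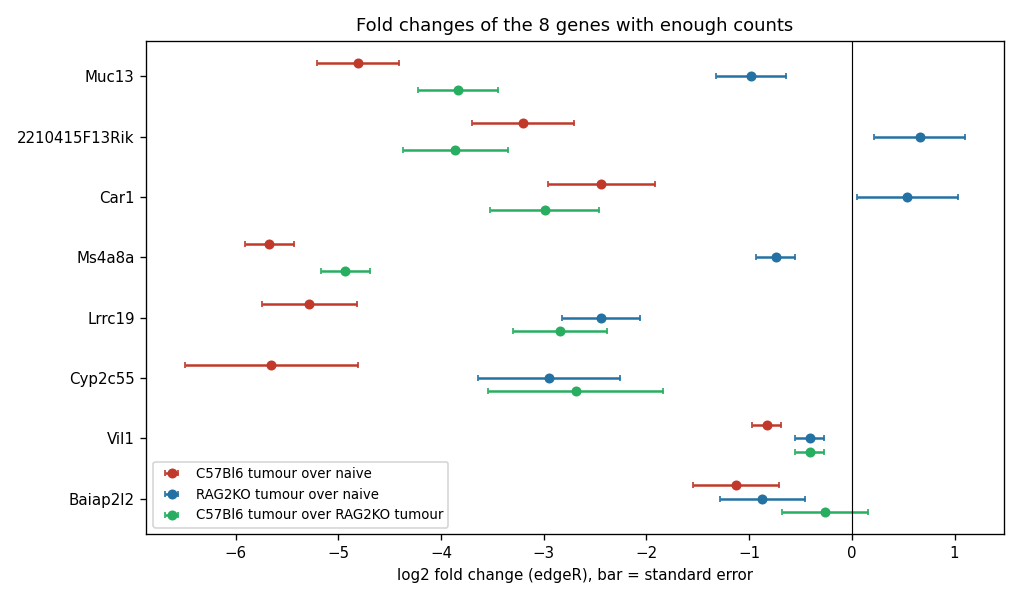
Log2 fold change from edgeR (horizontal axis, bar = standard error) of the 8 genes in 3 comparisons. All 8 values of C57Bl6 tumour over naive organoids are below 0, between -5.67 for Ms4a8a and -0.83 for Vil1, while RAG2KO tumour over naive organoids lies above 0 for 2210415F13Rik (0.66) and Car1 (0.54).

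The rest of the absorptive programme was read from 105 further genes, regulators of transcription apart, listed by role with earlier results of these data known. Of these, 100 were in the table and 73 had enough counts. In C57Bl6 tumour over naive organoids 8 were called higher, 18 were called lower and 47 did not pass, and their median log2 fold change was -0.07. These are 11% higher and 24.7% lower, beside 9.50% and 5.85% of all genes; DESeq2 and limma voom called 13 and 14 higher. In RAG2KO tumour over naive organoids the counts were also 8, 18 and 47, with a median of -0.20, beside 16.0% higher and 13.3% lower of all genes; 5 were higher without naive replicate 2. In C57Bl6 over RAG2KO tumour organoids 9 were higher (12.3%), 6 were lower (8.22%) and 58 did not pass, with a median of -0.01, beside 12.2% and 11.8% of all genes. The 9 became 3 without naive replicate 2 or RAG2KO replicate 2, 4 without C57Bl6 replicate 3 or with the compared groups alone, and 5 without naive replicate 1 or RAG2KO replicate 3. The first 2 comparisons share the naive libraries. In the mean of the SOX17OE lines over naive organoids 3 were higher, 20 lower and 50 did not pass, but without the constitutive library edgeR called 0 of them in either direction and 85 genes in all.

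In brush border structure (19 tested), 6 fell and 1 rose in C57Bl6 tumour over naive organoids. Myo1a, the myosin that ties the actin core to the membrane, had 1.94, 2.08 and 3.13 CPM in C57Bl6 tumour organoids, 7.14, 5.14 and 8.92 in RAG2KO tumour organoids, 5.19 in the constitutive and 13.9 in the inducible line, and 27.8, 27.9 and 18.5 in naive organoids. No replicated group overlapped another. It fell in C57Bl6 tumour over naive organoids (log2 fold change -3.37, SE 0.29, edgeR adjusted p = 0.000113), in RAG2KO tumour over naive organoids (-1.81, SE 0.27, adjusted p = 0.00171) and in C57Bl6 over RAG2KO tumour organoids (-1.56, SE 0.29, adjusted p = 0.00602). Ush1c, the harmonin scaffold of the microvillus tip complex, had 1.10, 0.673 and 0.455 CPM in C57Bl6 tumour organoids, 6.0, 10.4 and 34.5 in RAG2KO tumour organoids, and 17.5, 15.5 and 23.1 in naive organoids. C57Bl6 tumour organoids lay below both other groups, whereas RAG2KO replicate 3 lay above all naive libraries and the other 2 below. It fell by 4.64 (SE 0.68, edgeR adjusted p = 0.00238) against naive and by 4.50 (SE 0.68, adjusted p = 0.00369) against RAG2KO tumour organoids. RAG2KO tumour over naive organoids did not pass (-0.14, adjusted p = 0.873), but without RAG2KO replicate 3 the call was lower (-1.19, adjusted p = 0.0421) and C57Bl6 over RAG2KO tumour organoids was -3.46.

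Cdhr5, a microvillar protocadherin, and Pls1, plastin 1, fell in both tumour groups. The log2 fold changes of Cdhr5 over naive organoids were -2.24 (SE 0.33, edgeR adjusted p = 0.00195) in C57Bl6 and -1.34 (SE 0.32, adjusted p = 0.0127) in RAG2KO tumour organoids. For Pls1 they were -1.54 (SE 0.23, edgeR adjusted p = 0.002) and -1.13 (SE 0.23, adjusted p = 0.00607). Vill, a relative of villin, went the other way, with 78.0, 39.6 and 49.9 CPM in C57Bl6 tumour organoids and 97.4, 138 and 122 in RAG2KO tumour organoids, against 9.43, 10.4 and 20.1 in naive organoids. It rose by 2.06 (SE 0.33, edgeR adjusted p = 0.00333) and by 3.15 (SE 0.34, adjusted p = 0.000438) over naive organoids, so villin and its relative had opposite signs. 2 further myosins differed between the tumour groups: Myo1d was higher in C57Bl6 than in RAG2KO tumour organoids (1.19, SE 0.19, edgeR adjusted p = 0.00376), and so was Myo7b, the myosin of the tip complex (0.84, SE 0.24, adjusted p = 0.0311). The Myo7b call was lost without any 1 of naive replicate 2, C57Bl6 replicates 1 and 3 and RAG2KO replicates 1 and 2 (adjusted p 0.0501 to 0.0855).

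Among transporters (16 tested), 2 rose and 3 fell in C57Bl6 tumour over naive organoids. Scnn1a, a subunit of the epithelial sodium channel, stood at 12.8, 23.6 and 20.7 CPM in C57Bl6 tumour organoids and 14, 14.5 and 21.3 in RAG2KO tumour organoids, against 1.0, 1.31 and 1.19 in naive organoids. Tumour libraries all lay far above the naive range. The increase was 4.0 (SE 0.31, edgeR adjusted p = 5.1e-05) in C57Bl6 and 3.81 (SE 0.30, adjusted p = 7.44e-05) in RAG2KO tumour organoids. Of the other subunit genes of this channel, Scnn1g had 0 counts in all 11 libraries. Scnn1b averaged 0.0362 CPM in C57Bl6 tumour, 0.278 in RAG2KO tumour and 0 in naive organoids, so the rise is that of 1 subunit gene. The sodium-bicarbonate cotransporter gene Slc4a4 also rose in both tumour groups, by 2.99 (SE 0.30, edgeR adjusted p = 0.00024) and 2.96 (SE 0.30, adjusted p = 0.000239). Its relative Slc4a7 fell in both, by 0.99 (SE 0.18, edgeR adjusted p = 0.00543) and 1.21 (SE 0.18, adjusted p = 0.00159). The sodium-glucose cotransporter gene Slc5a1 had 0.0524, 0 and 0.101 CPM in C57Bl6 tumour organoids and 0.607, 2.04 and 2.31 in RAG2KO tumour organoids, against 0.643, 0.789 and 0.715 in naive organoids. On 3 counts, the C57Bl6 rate was 13.7-fold below the naive one (95% counting interval 4.39 to 69.3, edgeR adjusted p = 0.0144) and 31.9-fold below that in RAG2KO tumour organoids (10.5 to 158, adjusted p = 0.00409). 2 of the 3 counts were in C57Bl6 replicate 3, and without it edgeR's adjusted p-values were 0.026 and 0.0136.

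Of 8 other carbonic anhydrases tested, 1 rose and 2 fell in C57Bl6 tumour over naive organoids, and 1 rose and 1 fell in RAG2KO tumour over naive organoids. Car2, the other major cytosolic form in colon, averaged 903 ± 154 CPM in C57Bl6 tumour organoids, 1475 ± 499.9 in RAG2KO tumour organoids and 1365 ± 30.4 in naive organoids (SD, n = 3 each), with 551 CPM in the constitutive and 2183 CPM in the inducible line. The C57Bl6 tumour libraries lay below all naive libraries and the inducible line was the highest library, as for Car1. It did not pass in either tumour group against naive organoids (edgeR adjusted p = 0.118 and 0.751). Car12, a membrane-bound form, rose in C57Bl6 tumour over naive organoids by 2.58 (SE 0.49, edgeR adjusted p = 0.00687). It stood at 1.60 (SE 0.47, adjusted p = 0.0347) over RAG2KO tumour organoids, a call lost without naive replicate 1 or 2, C57Bl6 replicate 2 or RAG2KO replicate 2 or 3 (adjusted p 0.0521 to 0.117) and in a fit of the compared groups alone (0.0683). Without C57Bl6 replicate 2 the value was 1.01. Car6 and Car9 fell in C57Bl6 tumour over naive organoids (-2.35, edgeR adjusted p = 0.0122, and -1.92, adjusted p = 0.0459). The Car6 call was lost without naive replicate 1 or 3 (adjusted p 0.0536 and 0.0511) and with limma voom (-1.57, 0.0719). That of Car9 was lost without any 1 of the naive and C57Bl6 libraries or RAG2KO replicate 3 (0.0524 to 0.151). The gene that rose in RAG2KO tumour over naive organoids was Car8 (3.98, SE 1.18, edgeR adjusted p = 0.0328). It had 24.9 CPM in RAG2KO replicate 2 against 3.64 and 1.06 in replicates 1 and 3, and the group overlapped naive organoids. The Car8 call was lost without RAG2KO replicate 2 (1.91, adjusted p = 0.142), without any 1 naive library (0.0699 to 0.113) and with no filter (0.0735).

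Of the 3 other membrane mucins tested, 2 rose and 0 fell in C57Bl6 tumour over naive organoids, and 1 rose in RAG2KO tumour over naive organoids. Muc20 had 3.04, 3.14 and 3.03 CPM in C57Bl6 tumour organoids and 1.48, 2.80 and 0.748 in RAG2KO tumour organoids, against 0, 0.0876 and 0 in naive organoids, where the 2 counts seen were both in replicate 2. On these counts the rate was 88.7-fold higher in C57Bl6 (95% counting interval 24.2 to 738, edgeR adjusted p = 0.00129) and 49.4-fold higher in RAG2KO tumour organoids (13.2 to 414, adjusted p = 0.0022). Muc1 rose in C57Bl6 tumour over naive organoids by 4.20 (SE 0.90, edgeR adjusted p = 0.0126), with 17.3 CPM in replicate 1 against 2.36 and 2.73 in the other 2. Without C57Bl6 replicate 1 the increase was 2.65 (adjusted p = 0.0202), with limma voom it was 3.36 (adjusted p = 0.00386), and the call was lost without naive replicate 1 or 2 (adjusted p = 0.0596 each). In RAG2KO tumour over naive organoids Muc1 did not pass (2.11, edgeR adjusted p = 0.0958). Muc4 passed in neither (0.02, edgeR adjusted p = 0.992, and -1.86, adjusted p = 0.155).

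Brush border hydrolases (9 tested) gave 1 higher and 3 lower in C57Bl6 and 0 and 3 in RAG2KO tumour over naive organoids. The maltase-glucoamylase gene Mgam stood at 24.8, 12.2 and 12.3 CPM in C57Bl6 tumour organoids and 20.7, 20.6 and 27.4 in RAG2KO tumour organoids, against 50, 59.4 and 80.5 in naive organoids. Both tumour groups lay below the naive range, by 1.95 (SE 0.30, edgeR adjusted p = 0.0024) and 1.47 (SE 0.29, adjusted p = 0.00602) on the log2 scale. The metalloprotease gene Mep1a had 0 counts in all C57Bl6 tumour libraries, at least 6.66-fold below the naive mean of 1.06 ± 0.253 CPM (SD, n = 3; floor of 3 counts per library, edgeR adjusted p = 0.00677). The intestinal alkaline phosphatase gene Alpi had 1 count in C57Bl6 and 3 in RAG2KO tumour organoids, against 48 in naive organoids. Of the 48, 36 were in naive replicate 3 and 6 each in naive replicates 1 and 2. The pooled C57Bl6 and RAG2KO rates were 47.1-fold (95% counting interval 8.06 to 1899) and 13.3-fold lower (4.28 to 66.7). These intervals leave out the spread between naive libraries. The Alpi calls (edgeR adjusted p = 0.0348 and 0.0495) were lost without any 1 C57Bl6 library, and without several others (0.0514 to 0.119). The RAG2KO call was also lost in edgeR with DESeq2 size factors (adjusted p = 0.0513) or upper quartile scaling (0.0535). The DESeq2 Wald test (adjusted p = 0.0774) and limma voom (0.0757) did not call it either.

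Of 18 differentiation genes tested, 1 rose and 4 fell in C57Bl6 tumour over naive organoids. The raft protein gene Mal rose by 1.54 (SE 0.18, edgeR adjusted p = 0.000533) in C57Bl6 and by 1.74 (SE 0.18, adjusted p = 0.000277) in RAG2KO tumour organoids. Ceacam20, an adhesion molecule of the microvillus, had 2 counts in C57Bl6 tumour organoids against 75 in naive organoids, a rate 36.8-fold lower (95% counting interval 9.84 to 309, edgeR adjusted p = 0.00387), and fell in RAG2KO tumour organoids by 3.09 (SE 0.71, adjusted p = 0.0111). Without RAG2KO replicate 3 that value was -3.69. The transglutaminase gene Tgm3 was 0.105, 0.281 and 0.101 CPM in C57Bl6 tumour organoids and 2.70, 1.34 and 1.62 in RAG2KO tumour organoids, against 1.22, 1.27 and 1.10 in naive organoids. All C57Bl6 values lay below and all RAG2KO values above the naive range. It fell by 2.84 (SE 0.54, edgeR adjusted p = 0.00674) in C57Bl6 tumour over naive organoids and fell by 3.50 (SE 0.54, adjusted p = 0.00354) against RAG2KO tumour organoids, and without C57Bl6 replicate 2 these were -3.45 and -4.10. Krt20, the keratin of surface cells, did not pass in either tumour group against naive organoids (-0.30, edgeR adjusted p = 0.742, and 0.66, adjusted p = 0.335). It stood at 91.1 CPM in the constitutive and 10.7 CPM in the inducible line, against 2.43, 2.28 and 5.48 CPM in naive organoids. The mean of the lines rose by 3.19 (SE 0.53, edgeR adjusted p = 0.00887), or 1.64 (adjusted p = 0.224) without the constitutive library.

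**Figure D3:**
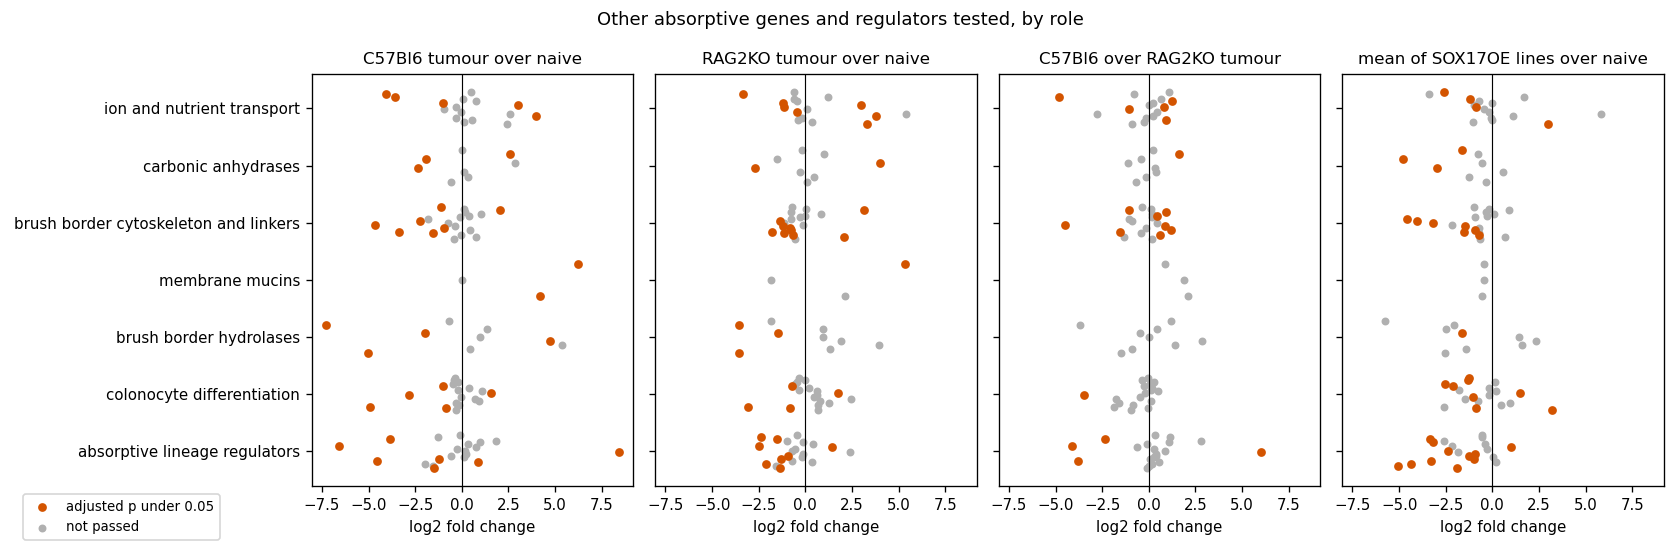
Log2 fold changes from edgeR of the absorptive genes and regulators tested outside the 10, 1 point per gene, in rows by role and panels by comparison (orange: adjusted p under 0.05; grey: not passed; within a row the vertical offset separates points only, and folds of genes with a group at 0 counts are fitted values). In C57Bl6 over RAG2KO tumour organoids the 2 lowest called points of transport and structure are Slc5a1 (-4.81) and Ush1c (-4.50).

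Of 20 regulators of the absorptive lineage tested, 2 rose and 5 fell in C57Bl6 tumour over naive organoids, 1 rose and 7 fell in RAG2KO tumour over naive organoids, and 1 was higher and 3 lower in C57Bl6 than in RAG2KO tumour organoids. Cdx1 had 0.472, 0.337 and 0.758 CPM in C57Bl6 tumour organoids, 3.91, 4.50 and 14.2 in RAG2KO tumour organoids, 0.346 in the constitutive and 4.55 in the inducible line, and 11.6, 16.7 and 8.91 in naive organoids. C57Bl6 tumour organoids lay below both other groups, and RAG2KO replicate 3 lay inside the naive range. Its log2 fold change was -4.54 (SE 0.59, edgeR adjusted p = 0.00104) against naive and -3.82 (SE 0.58, adjusted p = 0.00354) against RAG2KO tumour organoids. RAG2KO tumour over naive organoids did not pass (-0.72, SE 0.48, adjusted p = 0.287). Without RAG2KO replicate 3 that comparison was called lower (-1.56, adjusted p = 0.0207) and C57Bl6 over RAG2KO tumour organoids was -2.99.

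Its paralog Cdx2 behaved differently: 41.9, 58.1 and 53.2 CPM were measured in C57Bl6 tumour organoids, 54.7, 38.3 and 52.5 in RAG2KO tumour organoids, 34.3 in the constitutive and 103 in the inducible line, and 99.3, 109.8 and 146 in naive organoids. The tumour groups overlapped and both lay below the naive range. Cdx2 fell by 1.21 (SE 0.20, edgeR adjusted p = 0.00317) in C57Bl6 and by 1.29 (SE 0.20, adjusted p = 0.00181) in RAG2KO tumour over naive organoids, and did not differ past the threshold between the tumour groups (0.08, SE 0.20, adjusted p = 0.798). Hnf4a stood at 132, 53.1 and 60.7 CPM in C57Bl6 tumour organoids and 61.0, 60.6 and 144 in RAG2KO tumour organoids, 27.7 in the constitutive and 133 in the inducible line, against 207, 234 and 248 in naive organoids. Both tumour groups lay below naive organoids and overlapped each other. Its log2 fold changes over naive organoids were -1.49 (SE 0.41, edgeR adjusted p = 0.0401) in C57Bl6 and -1.38 (SE 0.41, adjusted p = 0.0338) in RAG2KO tumour organoids. Both calls were lost without any 1 naive library, the first also without C57Bl6 replicate 2 or 3 and the second without RAG2KO replicate 1 or 2 (0.0636 to 0.115), and with no filter on low counts (0.0838 and 0.0694). The bile acid and drug sensor Nr1i2, also called PXR, had 2.57, 0.505 and 0.707 CPM in C57Bl6 tumour organoids, 4.31, 5.26 and 10.2 in RAG2KO tumour organoids, 0.288 in the constitutive and 11.1 in the inducible line, and 21.4, 17.1 and 17.3 in naive organoids. It formed the same 3 steps as Lrrc19. It fell by 3.87 (SE 0.57, edgeR adjusted p = 0.00208) in C57Bl6 tumour over naive organoids, and by 4.92 without C57Bl6 replicate 1. Against RAG2KO tumour organoids it fell by 2.37 (SE 0.55, edgeR adjusted p = 0.0151), or by 3.42 without C57Bl6 replicate 1, and the call was lost without C57Bl6 replicate 3 (0.0509). In RAG2KO tumour over naive organoids it fell by 1.5 (SE 0.50, adjusted p = 0.0484), lost without any 1 naive library or RAG2KO replicate 1 or 2 (0.0973 to 0.133).

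2 other regulators moved strongly in C57Bl6 tumour organoids. Atoh1, which commits cells to the secretory instead of the absorptive lineage, had 1 count in C57Bl6 tumour organoids, 20 in RAG2KO tumour organoids and 130 in naive organoids. The C57Bl6 rate was 128-fold below the naive rate (95% counting interval 22.5 to 5077, edgeR adjusted p = 0.00215). Against RAG2KO tumour organoids it was 23.6-fold lower (3.78 to 979, adjusted p = 0.0217), a call lost without C57Bl6 replicate 1 or 2 or RAG2KO replicate 3 (0.0546 to 0.0679) and with limma voom (0.0875). Gata5 was 21.5, 0.898 and 2.88 CPM in C57Bl6 tumour organoids and 0.202, 0.117 and 0.0624 in RAG2KO tumour organoids, with 1 count in all naive libraries. It rose by 5.99 (SE 1.27, edgeR adjusted p = 0.011) over RAG2KO tumour organoids, and by 3.84 (adjusted p = 0.0192) without C57Bl6 replicate 1, while limma voom did not call it (4.63, adjusted p = 0.067). Klf4, known for differentiation of surface colonocytes and goblet cells, did not pass in any of the 4 comparisons (edgeR adjusted p between 0.477 and 0.956). For the mean of the SOX17OE lines, 10 of the 20 regulators were called lower and 1 higher, beside 5.92% and 6.77% of all genes. Cdx1 stood at -3.29 (SE 0.66, edgeR adjusted p = 0.016), or -1.44 without the constitutive library. Without that library Nr1i2 went from -3.36 to -0.74 and Hnf4a from -1.92 to -0.78. Hnf4g, on 1 count in each line, stayed at -5.08. The count for the mean is therefore not read as a change in both lines.

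**Figure D4:**
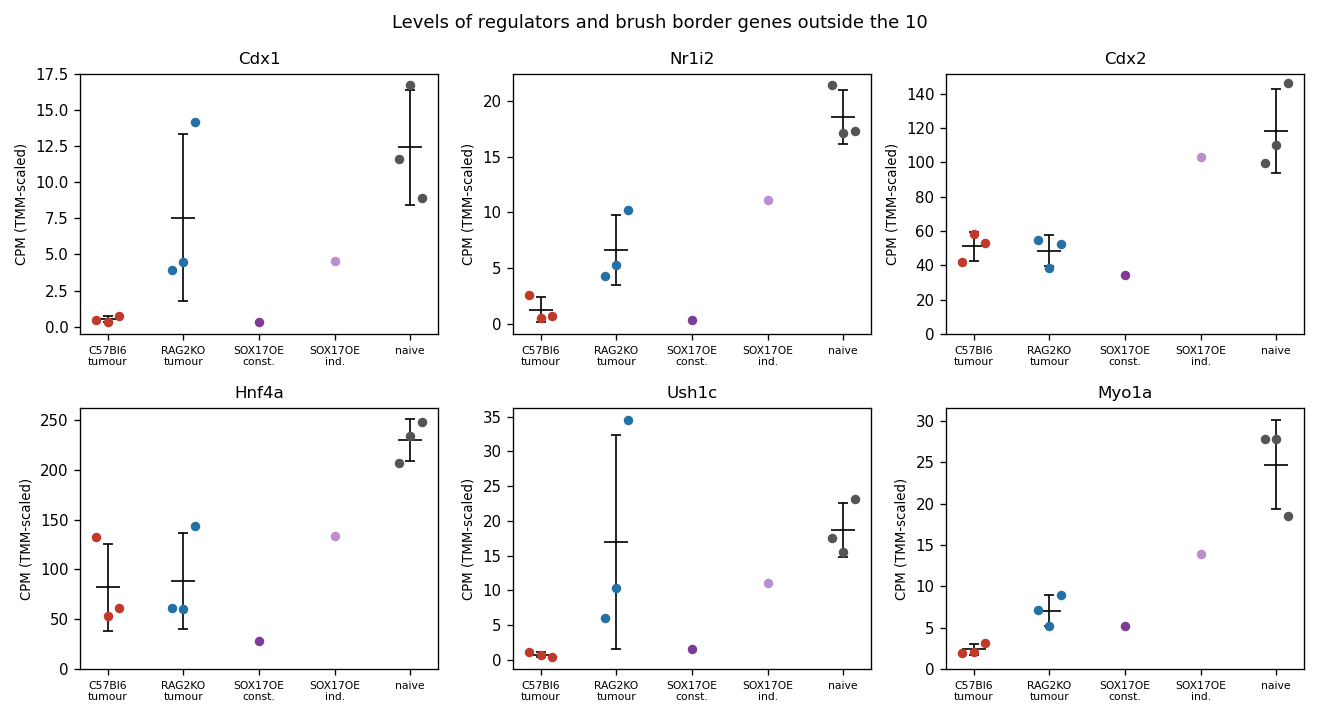
Level (CPM on TMM-scaled library sizes, linear axes) of 4 regulators and 2 brush border genes outside the 10, 1 point per library, with a dash for the mean and bars for the SD of the groups of 3. Cdx1, Nr1i2, Ush1c and Myo1a are lowest in C57Bl6 tumour organoids among the replicated groups, and the Cdx2 and Hnf4a levels of the 2 tumour groups overlap.

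The genes whose levels were most like the mean z-score of the 8, among 11921 tested genes at 1 CPM or more on average, included 2 of these regulators. Pearson's r over the 11 libraries was 0.972 for Nr1i2, 0.971 for Cdx1, 0.968 for Itih5 and Akr1c12, 0.966 for Clrn3, 0.964 for Slc17a4, 0.95 for Trim31 and 0.949 for Dnajc22. Trim31, a ubiquitin ligase of intestinal epithelium, had 0.629, 0.281 and 0.202 CPM in C57Bl6 tumour organoids, 3.10, 3.39 and 4.12 in RAG2KO tumour organoids, 1.5 in the constitutive and 9.73 in the inducible line, and 13.1, 11 and 11.1 in naive organoids. Slc17a4, an organic anion transporter, had 0.576, 0.337 and 1.52 CPM in C57Bl6 tumour organoids, 6.27, 3.85 and 13.8 in RAG2KO tumour organoids, 0.288 in the constitutive and 4.31 in the inducible line, and 14.1, 14.9 and 17.0 in naive organoids. The genes were picked for this likeness, so their order of groups (naive highest and C57Bl6 lowest of the replicated groups) is a description. The mean z-score itself was -0.90, -1.11 and -0.92 in C57Bl6 tumour organoids, 0.13, 0.12 and 0.54 in RAG2KO tumour organoids, -1.06 in the constitutive and 0.52 in the inducible line, and 0.91, 0.88 and 0.89 in naive organoids.

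Fibroblast and smooth muscle markers (10 of 10 genes in the table) summed to 1.10 to 2.52 CPM in C57Bl6 tumour organoids, 1.18 to 10.3 in RAG2KO tumour organoids, 6.92 in the constitutive and 0.874 in the inducible line, and 0.357 to 0.524 in naive organoids, with Des at 0 in all 11 libraries. Of these, Acta2, the smooth muscle actin gene, had 0.734, 1.23 and 0.808 CPM in C57Bl6 and 1.08, 1.28 and 0.437 CPM in RAG2KO tumour organoids, against 0.0715, 0.0876 and 0.191 CPM in naive organoids. It was called higher in both (2.88, edgeR adjusted p = 0.0171, and 2.89, adjusted p = 0.0111), calls lost without naive replicate 2 (0.0832 and 0.0556) and, in C57Bl6, without naive replicate 1 (0.0731). The collagen gene Col3a1 gave 7.07 CPM of the sum in RAG2KO replicate 2 and had 0 counts in RAG2KO replicates 1 and 3. It gave 5.24 CPM of the 6.92 in the constitutive line. Leukocyte markers (11 of 11) summed to 5.55 to 10 CPM, 6.34 to 16.2, 14.9, 5.71 and 3.93 to 11 in the same order of groups, with Cd3g and Nkg7 at 0 everywhere. The macrophage receptor gene Csf1r was called higher in RAG2KO tumour over naive organoids on 35 against 2 counts, a rate 21.1-fold higher (95% counting interval 5.41 to 181, edgeR adjusted p = 0.0336), lost without naive replicate 2 or 3 (0.119 and 0.107). Endothelial markers (6 of 6) summed to 2.62 to 7.18 CPM, 2.29 to 5.90, 12.3, 4.55 and 2.37 to 3.91. Cdh5, the endothelial cadherin gene, had 3.29 CPM in the constitutive and 0.758 CPM in the inducible line, against 0 counts in naive organoids, and the mean of the lines was called higher (edgeR adjusted p = 0.0128, or 0.113 without the constitutive library). The part of these markers in the results was not tested. Goblet cell markers (7 of 8 in the table) summed to 18.2 to 106 CPM, 58.4 to 130.0, 71.8, 128 and 58.0 to 98.6, and stem cell markers (7 of 7) to 518 to 652 CPM, 479 to 662, 519, 446 and 491 to 592. Within the stem cell sum, Lgr5 averaged 16.9 CPM in RAG2KO tumour and 57.6 in naive organoids. It stood at 1.56 and 6.30 CPM in the constitutive and inducible lines. Lgr5 fell in RAG2KO tumour over naive organoids (-1.77, edgeR adjusted p = 0.00478) but not in C57Bl6 (-0.09, adjusted p = 0.88). Rnf43 rose in RAG2KO tumour over naive organoids (0.65, adjusted p = 0.011), and 4 stem cell genes were not called. The share of counts assigned to the ribosomal precursor Rn45s was 2.21% to 3.77% in C57Bl6 tumour organoids and 6.56% to 8.54% in RAG2KO tumour organoids, 6.39% and 3.71% in the constitutive and inducible lines, and 2.42% to 4.99% in naive organoids, so it differed between the tumour groups. Its part in the C57Bl6 over RAG2KO differences was not tested.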

How the data were processed

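Gene-level expected counts were deposited by the authors for 11 poly(A)-selected libraries (Ambion PureLink extraction, NEBNext Ultra II Directional preparation, per the labels' protocols). Per the submitters' processing notes, Bowtie, RSEM and the mm9 build were used; their versions and the annotation are not given. RSEM divides reads shared by similar genes, so counts of close paralogs are estimates. The deposited values were rounded to whole numbers and kept where edgeR's filterByExpr passed a gene (13720 of 23224). Library sizes were scaled by TMM. The quasi-likelihood test of edgeR 4.0.16 (robust, R 4.3.3) was fitted to all 11 libraries in 5 groups with 6 residual degrees of freedom, with Benjamini-Hochberg adjustment over all tested genes and calls at an adjusted p of 0.05. The common dispersion was 0.0641, a coefficient of variation of 25.3%. The SE is the absolute log2 fold change over the square root of F. SOX17OE lines have 1 library each and are assumed to vary like the other groups.

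The 10 genes, the role lists and the tests were chosen with earlier results of these data known. Most genes named outside the 10 were taken from these: per role list and comparison, the first 3 called by adjusted p, plus Cdx1, Cdx2, Hnf4a, Hnf4g, Klf4, Sox17, Car2, Krt20 and Epcam, and the 8 most like the mean z-score of the tested members with at least 1 CPM on average. 1 further gene of that list is not reported here. Likeness used log2(CPM + 0.5), with unnamed predicted genes left out. A count of 0 was read against a floor of 3 counts per library, and groups with 1 to 3 counts were given a ratio with an exact 95% interval; both cover counting error only. Promoter windows came from RefSeq's GRCm38.p6 table (8 of the 10 genes matched, the count files being on mm9), and motifs were exact matches on both strands. Alternatives were other scalings and filters, a non-robust fit, DESeq2 1.42.0, limma 3.58.1 (voom), a replicate block, the groups compared alone, and leaving out each library. No 2 replicates of a group agreed within sampling noise.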

Additional observations from a re-analysis of the deposited data

Results flagged for a closer look

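Effects against naive organoids differed between the 2 tumour groups for several genes. For 2210415F13Rik and Car1 every C57Bl6 tumour library lay below and every RAG2KO tumour library above the naive mean; the log2 fold changes of C57Bl6 over RAG2KO tumour organoids were -3.86 and -2.99, and this difference was not tested because both genes were chosen with it known. For 17 of the named genes outside the 10, leaving aside those picked only for likeness to the 8, edgeR's test of C57Bl6 against RAG2KO tumour organoids, which is the difference between the 2 effects, passed at an adjusted p of 0.05. The log2 fold changes of those lower in C57Bl6 tumour organoids were -4.81 for Slc5a1, which rests on 3 counts, -4.50 for Ush1c, -1.56 for Myo1a, -1.09 for Vill, -4.12 (fitted, on 1 count) for Atoh1, -3.50 for Tgm3, -3.82 for Cdx1, -2.37 for Nr1i2 and -0.43 for the epithelial marker Epcam. Those higher in C57Bl6 tumour organoids were 0.81 for the monocarboxylate transporter gene Slc16a1, 0.90 for the sulfate transporter gene Slc26a2, 1.60 for Car12, 1.19 for Myo1d, 0.84 for Myo7b, 5.99 for Gata5, 0.95 for the E-cadherin gene Cdh1 and 1.68 for the stem cell receptor gene Lgr5. Of these, Slc16a1, Myo1d, Myo7b, Cdh1 and Lgr5 were called lower in RAG2KO tumour over naive organoids and not called in C57Bl6 tumour over naive organoids. Car12 and Gata5 were called higher in C57Bl6 tumour over naive organoids, and Slc26a2 was called in neither. Up to 3 genes per role list were named because they passed the test of C57Bl6 against RAG2KO tumour organoids, so nothing is read from the number 17. Over all genes, 12.2% were called higher and 11.8% lower in this comparison. In each of the 17 the 3 libraries of 1 tumour group all lay on the same side of the other group, as the choice by this test favours. The Vill call was lost without C57Bl6 replicate 2 or 3 or RAG2KO replicate 2 or 3 (0.0766 to 0.0979) and with no filter (0.0508). The Epcam call was lost without naive replicate 2, C57Bl6 replicate 2 or 3, or RAG2KO replicate 1 or 3 (0.0591 to 0.106) and with scaling by library totals (0.057), no filter (0.0519) or the compared groups alone (0.0615).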

How the results depend on the processing

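Of the 10 genes, in RAG2KO tumour over naive organoids 5 were called lower with scaling by library totals and with DESeq2 and 6 with limma voom, and 1 was called higher with voom and in a fit of the compared groups alone. In C57Bl6 tumour over naive organoids voom gave a median of -4.24 and 4086 genes called against 2106 in the edgeR fit, and DESeq2 and voom called 13 and 14 other absorptive genes higher against 8. In C57Bl6 over RAG2KO tumour organoids 5 (replicate block) and 4 (compared groups alone) other absorptive genes were called higher against 9. For the SOX17OE mean, genes called in all were 2711 with DESeq2, 3825 with voom and 2630 with the compared groups alone against 1741. Other absorptive genes called higher were 6 with voom and with the compared groups alone, where 31 were called lower. The cause of these moves was not tested.

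With 1 library left out, C57Bl6 tumour over naive organoids ranged from 1030 (without naive replicate 2) to 2328 genes called, with a median of -4.46 to -3.77 for the 8 genes, 0 of the 10 called higher and 6 to 8 lower, and 6 to 10 higher and 13 to 20 lower of the other absorptive genes. RAG2KO tumour over naive organoids ranged from 2041 (without naive replicate 2) to 4184, with a median of -1.09 to -0.57, 0 to 1 of the 10 higher and 2 to 6 lower, and 5 to 10 and 12 to 20 of the others. C57Bl6 over RAG2KO tumour organoids ranged from 1857 (without C57Bl6 replicate 3) to 3311, with a median of -3.42 to -2.57, 0 of the 10 higher and 5 to 6 lower, and 3 to 9 and 4 to 9 of the others. The SOX17OE mean ranged from 85 (without the constitutive line) to 1931, with a median of -4.58 to -0.45, 0 of the 10 higher and 0 to 6 lower, and 0 to 4 and 0 to 23 of the others. Muc13 in that mean was -8.15 without the inducible line and turned to 0.23 without the constitutive line.

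Replicate numbers did not pair the samples: deviations of the 9 same-numbered pairs correlated at -0.16 to 0.13, with 1 over 0.1. With the replicate block, 1737, 3453 and 2688 genes were called in C57Bl6 over naive, RAG2KO over naive and C57Bl6 over RAG2KO, and 7, 4 and 5 of the 10 were lower. The block could not be fitted for the SOX17OE lines, which have 1 library each. It took adjusted p over 0.05 for Car12 (0.0708) and Vill (0.054) in C57Bl6 over RAG2KO, Car9 (0.0705) and Hnf4a (0.0508) in C57Bl6 over naive, and Car8 (0.109) and Nr1i2 (0.0682) in RAG2KO over naive. Over all settings, 4370 fold changes of named genes stayed on their side of the threshold, of which 88, none of them called, changed sign; 190 lost a call and 94 gained one. Depth limits Slc26a3, Car4, Lrrc19 and Cyp2c55, which had 0 to 5 counts in C57Bl6 tumour libraries.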
